A study of Drosophila melanogaster with 3 samples.

Results

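The Enhancer of split complex is a cluster of small genes on arm 3R of Drosophila melanogaster, next to groucho (gro), and it was examined for occupancy by Sox15. The 9 members were chosen by gene name from the Ensembl annotation, out of 13945 protein-coding genes on the 6 main arms. They are the 7 basic helix-loop-helix (bHLH) genes E(spl)mdelta-HLH, E(spl)mgamma-HLH, E(spl)mbeta-HLH, E(spl)m3-HLH, E(spl)m5-HLH, E(spl)m7-HLH and E(spl)m8-HLH, the Bearded-family gene E(spl)malpha-BFM, and gro. The 4 other genes that lie between them, Kaz-m1, E(spl)m2-BFM, E(spl)m4-BFM and E(spl)m6-BFM, are described beside them. Each gene was taken with 2 kb on either side, and the interval from the first to the last member with 2 kb added ran from 25995621 to 26051911 on 3R (dm6), a length of 56291 bp. The members were proposed with the peaks of these files in view, so that the peaks at them are described here without a test.

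The study measured genome occupancy by chromatin immunoprecipitation and sequencing (ChIP-seq) in whole prepupae, the stage between the larva and the pupa. All animals came from 1 transgenic line that stably expresses Sox15 with eGFP at its C-terminus, the sexes were mixed, the age is given as unknown, and an antibody against GFP was used for the pull-down. The series has 1 group of 3 biological replicates and no second condition, and no control library was analysed here. Whole animals hold many tissues, and more cells with an occupied site cannot be told apart from higher occupancy per cell.

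In flies the bHLH proteins of the complex are transcriptional repressors that are switched on by Notch signalling, through the DNA-binding protein Su(H), and that stop neighbouring cells from adopting a neural fate. They act with Groucho, a corepressor that binds no DNA itself. The Bearded-family proteins of the complex bind the ubiquitin ligase Neuralized and dampen Delta signalling. Sox15, like other Sox proteins, contacts short AT-rich sites with its high-mobility-group domain. It is known in the fly from the socket cell of sensory bristles and from the wing hinge.

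Sox15-eGFP had 10 summits in the interval, of which 9 were matched in all 3 replicates by the rule given below. The remaining peak overlaps a neighbour upstream of m3. Their summits are 220 bp apart, inside the fragment size range of 200-800 bp, so that 10 separate positions are not shown. The files hold a set of peaks that passed an irreproducible discovery rate (IDR) analysis, a longer, relaxed list made on the replicates together, and such a list for each replicate. Each peak has a summit, its point of highest enrichment, and a signal given by the authors, whose scale is not stated and which is therefore compared by rank within its own list. The interval held 10 of the 4555 IDR summits and 20 of the 14164 pooled summits. The replicate lists held 23 of 19304, 15 of 19033 and 18 of 16102 summits there. Of these, 9, 9 and 12 were among the 4555 strongest of replicates 1, 2 and 3.

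The density of IDR summits was 17.8 per 100 kb in the interval and 3.40 per 100 kb over the arms. When the arms were divided into 2375 adjoining tiles of the interval's length, the median tile held 1 IDR summit, the 90th percentile was 5 and the highest was 17. At least 10 were held by 33 tiles, which is 1.39% of them, and 912 tiles held none. The weaker lists were denser in the interval as well, with 35.5 against 10.6 pooled summits per 100 kb and with 40.9 against 14.4, 26.6 against 14.2 and 32.0 against 12.0 in replicates 1, 2 and 3. The density in the interval was thus above that of the arms in every list. The members were chosen with these peaks in view, so that the place of the interval among the tiles is a description only. Without the added 2 kb the interval held 8 IDR summits.

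**Figure D1:**
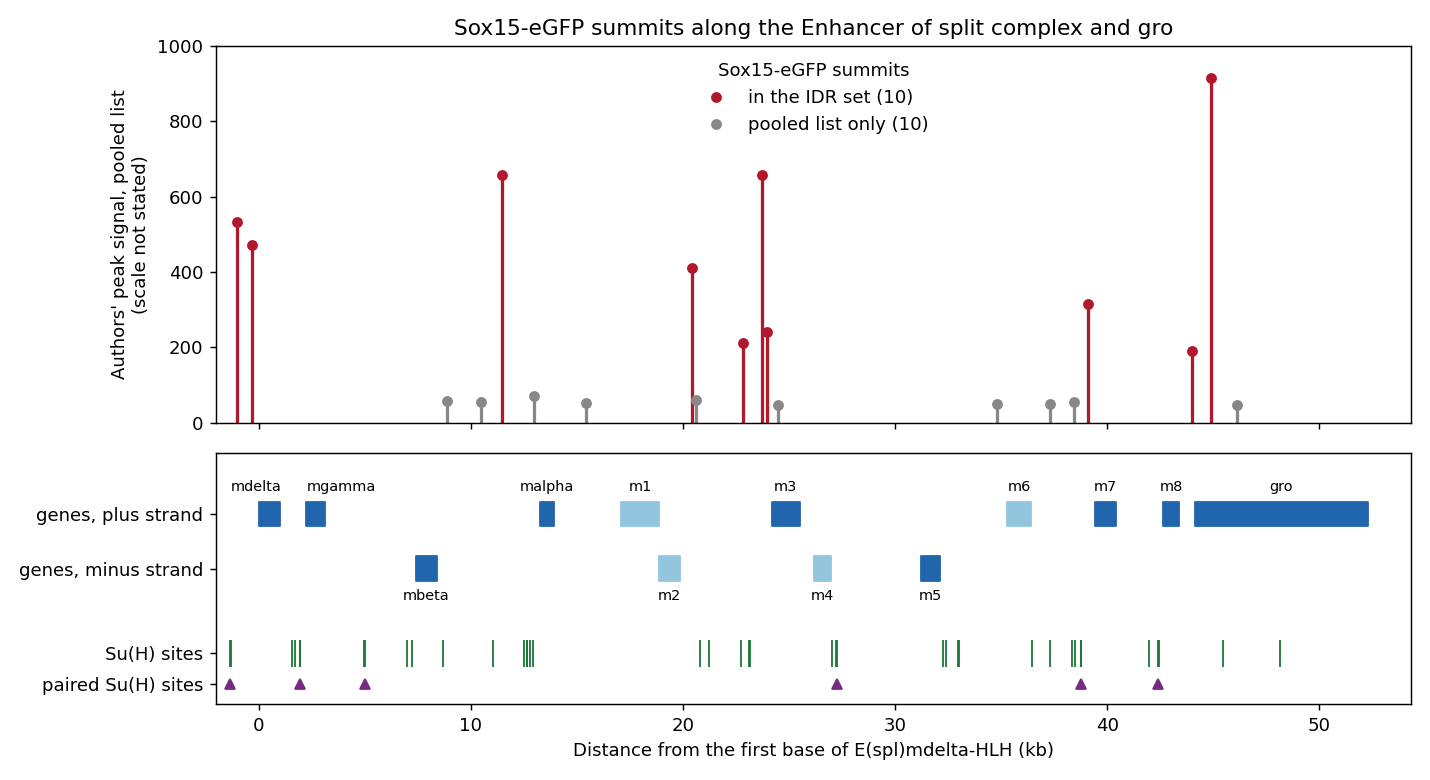
Signal of the pooled Sox15-eGFP peaks (upper panel, authors' signal, scale not stated) against distance from the first base of E(spl)mdelta-HLH in kb, with the genes of the complex on each strand, the Su(H) sequence matches and 6 of their facing pairs (lower panel). Red marks the 10 summits of the IDR set and grey the 10 found only in the pooled list, dark blue the 9 members and light blue the 4 other genes (m1 is Kaz-m1). The red summits lie in 5 places, at mdelta, upstream of malpha, from m2 to m3, at m7 and at gro.

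The sequence under the summits is shown for 6 peaks, because they include the 3 strongest peaks of the complex, in the gro intron and upstream of m3 and malpha, the peaks upstream of m7 and mdelta, and the upstream gro peak, which has no Sox letters, for contrast. Of the 4 peaks not shown, 1 has a match, the farthest m3 peak. Each is the plus strand of RefSeq Release 6 on 3R from 100 bp before to 100 bp after the summit, 201 bases in all. Capitals mark AACAAT, the core letters bound by Sox factors, or its reverse complement ATTGTT. The peak in the gro intron, 3R:26042397-26042597, has 1 match, 31 bp from the summit.
gro intron: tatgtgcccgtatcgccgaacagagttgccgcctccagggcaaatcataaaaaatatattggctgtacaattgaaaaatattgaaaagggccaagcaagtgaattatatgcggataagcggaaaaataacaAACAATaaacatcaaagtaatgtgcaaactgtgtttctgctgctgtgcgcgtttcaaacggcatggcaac
The stronger peak upstream of m3, 3R:26021263-26021463, has 1 match, 30 bp from the summit.
m3 upstream: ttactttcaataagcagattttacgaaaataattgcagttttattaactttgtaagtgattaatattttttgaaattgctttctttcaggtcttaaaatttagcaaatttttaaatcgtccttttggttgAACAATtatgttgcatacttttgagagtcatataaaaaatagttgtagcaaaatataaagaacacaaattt
The peak upstream of malpha, 3R:26008992-26009192, has 1 match, 15 bp from the summit.
malpha upstream: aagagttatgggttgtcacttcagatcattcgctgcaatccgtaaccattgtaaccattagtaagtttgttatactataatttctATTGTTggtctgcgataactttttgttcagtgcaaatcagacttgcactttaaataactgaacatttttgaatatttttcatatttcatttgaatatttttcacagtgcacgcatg
The peak upstream of m7, 3R:26036593-26036793, has 1 match, 10 bp from the summit.
m7 upstream: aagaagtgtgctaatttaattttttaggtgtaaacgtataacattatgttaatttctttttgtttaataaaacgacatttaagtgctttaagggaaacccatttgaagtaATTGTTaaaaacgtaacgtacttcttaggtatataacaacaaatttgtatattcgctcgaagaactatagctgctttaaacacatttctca
The peak between mdelta and CG43116, 3R:25997192-25997392, has 2 matches, 62 and 83 bp from the summit.
mdelta upstream: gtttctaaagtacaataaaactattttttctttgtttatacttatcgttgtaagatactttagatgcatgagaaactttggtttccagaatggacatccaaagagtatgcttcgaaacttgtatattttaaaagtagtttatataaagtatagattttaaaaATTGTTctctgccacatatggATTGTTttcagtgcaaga
The peak upstream of gro, 3R:26041530-26041730, the weakest of the 10, has no match.
gro upstream: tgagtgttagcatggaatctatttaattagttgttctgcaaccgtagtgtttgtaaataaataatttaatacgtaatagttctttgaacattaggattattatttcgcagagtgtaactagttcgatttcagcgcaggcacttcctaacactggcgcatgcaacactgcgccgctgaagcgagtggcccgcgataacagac

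Of the 9 members, 6 had an IDR summit in the gene body or within 2 kb of it, and 31.1% of all protein-coding genes did. With the pooled list it was 7 members, against a background of 57.3%. Since 8 of the 9 members are no longer than 1500 bp, genes of that size are the closer comparison. Of those 8 members, 5 had an IDR summit in the body or flanks, where 19.1% of genes of that size did. None of the 8 had one inside the body, and 1.52% of genes of that size did. At that share 8 genes would mostly hold none. An IDR summit lay within 1 kb of a start site in 4 members, mdelta, m3, m7 and gro, against a background of 19.3%. Of the 10 summits, 9 were upstream of the nearest start site and 0 lay in coding exons. The 9 include the summit in the gro intron, 144 bp upstream of its nearest start. That summit is also 761 bp downstream of the gro start used by 6 transcripts. The remaining summit lay in an intron of CG43116. No upstream share over all IDR summits is given here, so that these counts do not set the complex apart.

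Of the 7 bHLH genes, all of them short, 4 had an IDR summit in the body or flanks, beside 19.1% of genes up to 1500 bp. The 4 include m8, whose IDR summits both lie at gro. E(spl)mdelta-HLH (FBgn0002734, 3R, 25997621 to 25998633, plus strand) is the first bHLH gene along the arm. An IDR peak at 25997230 to 25997345 had its summit 329 bp upstream of the mdelta start and 296 bp upstream of CG43116, which is read in the other direction. Its signal was 472.6 in the IDR set, and 248.5, 118.9 and 95.1 in replicates 1, 2 and 3, at ranks 521, 705 and 791 of the replicate lists. A second peak at 25996536 to 25996703 lay in an intron of CG43116, 1003 bp upstream of the mdelta start, with a signal of 532.8. In the replicates it had signals of 272.1, 151.0 and 116.5 and ranks 433, 451 and 530. Replicate 1 ranked each of them highest and replicate 3 lowest, and the ranges of the pair touch, from 433 to 530 against 521 to 791.

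E(spl)m3-HLH (FBgn0002609, 26021823 to 26023127, plus strand) had the most summits of any gene of the complex, 3 in the IDR set, and all lay upstream. The strongest, at 26021165 to 26021560, was 460 bp upstream of the start with a signal of 657.5. Its signals were 335.2, 184.1 and 134.4 in the replicates, and its ranks were 278, 300 and 394. A weaker peak at 26020258 to 26020653, 1367 bp upstream, had a signal of 211.7 and ranks 1841, 2389 and 3034. The third, at 26021385 to 26021780, had its summit 240 bp upstream and a signal of 239.8, and it overlapped the strongest peak. Replicate 3 alone had a summit of its own at that position, at rank 2604. Replicate 1 had no matching peak there, and the match in replicate 2 was the same peak that matched the strongest one, 158 bp away. The peak nearest to the m3 start is therefore the least reproduced of the 10.

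E(spl)m7-HLH (FBgn0002633, 26037038 to 26038019, plus strand) had 1 IDR peak, at 26036495 to 26036890, with its summit 345 bp upstream of the start. The signal was 313.8 in the IDR set and 175.7, 85.5 and 58.4 in the replicates, at ranks 986, 1225 and 1671. E(spl)m8-HLH (FBgn0000591, 26040240 to 26041008, plus strand) was counted as near 2 IDR summits, 1390 and 2257 bp downstream of its start, but both lie at gro. No IDR summit was nearer to the m8 start than to another. The m8 gene, where the dominant mutation that gave the complex its name lies, thus had no peak of its own upstream.

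The remaining bHLH genes had no IDR summit in the body or within 2 kb. E(spl)mgamma-HLH (FBgn0002735, 25999851 to 26000761, plus strand) had no summit of any of the 5 lists in that window, and the nearest IDR summit was 2559 bp away. E(spl)mbeta-HLH (FBgn0002733, 26005046 to 26006023, minus strand) was 3069 bp from the nearest IDR summit. A weak pooled peak 466 bp upstream of its start had a signal of 56.1 and was covered by a peak of the relaxed list in replicate 1 only, at rank 7922. E(spl)m5-HLH (FBgn0002631, 26028854 to 26029735, minus strand) was the farthest from an IDR summit, at 6958 bp, and its window held only a summit in replicate 2 at rank 13912 and in replicate 3 at rank 13927. The preceding bHLH gene along the arm, m3, had 3.

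**Figure D2:**
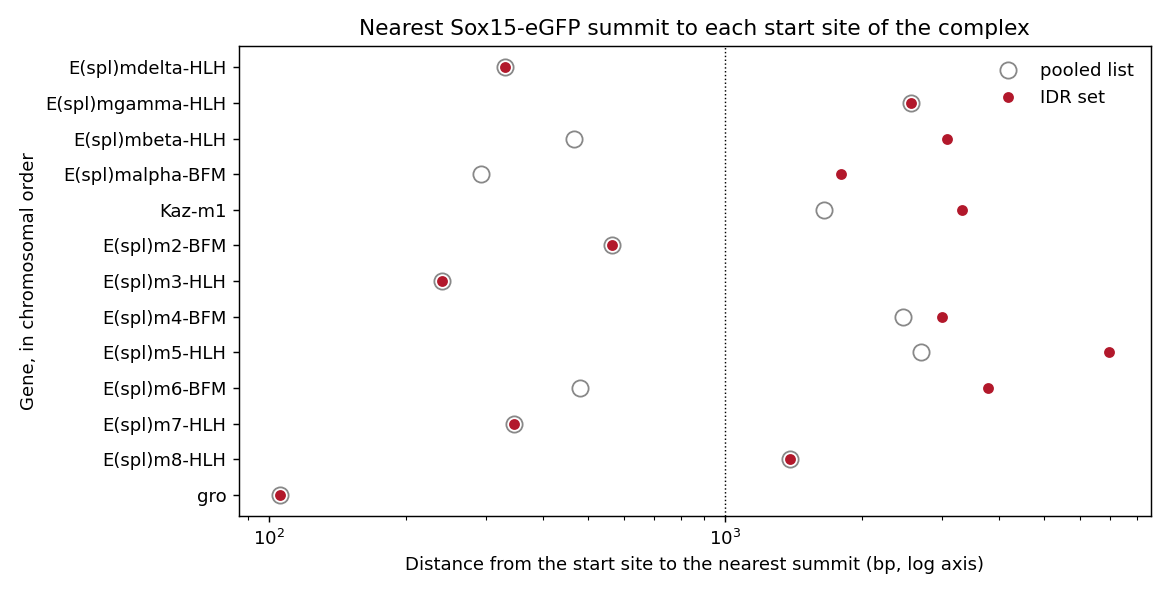
Distance in bp (log axis) from each start site of the complex to the nearest summit of the IDR set (red) and of the pooled list (open grey circles), with genes in chromosomal order and a dotted line at 1 kb. For gro the nearest of its 4 start sites is used. The IDR summits lie within 1 kb for mdelta, m2, m3, m7 and gro, and m5 is the farthest at 6958 bp.

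Among the Bearded-family genes of the complex, all of them short, 2 of 4 had an IDR summit in the body or flanks, beside 19.1% of genes up to 1500 bp. E(spl)malpha-BFM (FBgn0002732, 26010893 to 26011568, plus strand) had a strong peak at 26008979 to 26009209, with its summit 1801 bp upstream of the start, just inside the 2 kb limit. Its signal was 656.7 in the IDR set and 348.7, 170.9 and 141.0 in the replicates, at ranks 255, 347 and 359. A weak pooled peak closer to the malpha start, 292 bp upstream, had a signal of 70.8. For E(spl)m2-BFM (FBgn0002592, 26016514 to 26017470, minus strand) the summit lay 566 bp upstream, in a non-coding exon of lncRNA:CR43643, at 26017998 to 26018104. That peak had a signal of 411.1 and ranks 619, 1087 and 851, and it was also counted for Kaz-m1 (FBgn0002578, 26014721 to 26016487, plus strand), a gene with a Kazal protease inhibitor domain that lies on the other side of m2.

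E(spl)m4-BFM (FBgn0002629, 26023821 to 26024579, minus strand) and E(spl)m6-BFM (FBgn0002632, 26032911 to 26034047, plus strand) had none. The nearest IDR summits lay 2238 and 2646 bp from the ends of these genes, just outside the limit. In the pooled list m6 had a summit 481 bp upstream of its start with a signal of 50.4, near the weakest signal of that list, 46.1. Elsewhere in the genome 4 Bearded-family genes could be matched, Brd, BobA, Tom and Ocho, and 0 of them had an IDR summit in the body or flanks. At the 19.1% of short genes, 4 genes would often hold none, so that this count does not set them apart. Brd and Tom shared a pooled summit with a signal of 69.0.

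The strongest peak of the interval lay in gro (FBgn0001139, 26041736 to 26049911, plus strand), the corepressor gene. The peak at 26042385 to 26042623 had a signal of 914.8, which put it at rank 135 of the IDR set. Its signals were 446.5, 233.8 and 230.7 in the replicates, at ranks 138, 169 and 115. It sits in an intron, 761 bp downstream of the start site used by 6 annotated transcripts and 417 bp downstream of one used by 2 transcripts. The other start sites, with 1 transcript each, lie 144 and 323 bp beyond it. The peak is therefore internal to the long transcripts and upstream of the short ones.

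A second gro peak, at 26041432 to 26041827, had its summit 106 bp upstream of the first start site. With a signal of 191.3 it was the weakest IDR peak of the complex, with signals of 97.6, 45.8 and 41.8 and ranks 2402, 2940 and 2701 in the replicates. The ranks of the intronic peak and of the upstream peak did not overlap in the 3 replicates. The promoter of the long gro transcripts was thus ranked far below the intron that lies less than 1 kb downstream of it, the summits being 867 bp apart.

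Over the 9 peaks matched in every replicate the order was much the same. By the median of the replicate ranks the gro intron came first with ranks from 115 to 169, and its range did not overlap that of the next peak. The stronger m3 peak, 278 to 394, and the malpha peak, 255 to 359, followed with ranges that overlap. Their ranges did not overlap that of the CG43116 intron, 433 to 530, which came next. Below it came the peaks upstream of mdelta, m2 and m7, and each of these overlapped its neighbour in the order. The farthest m3 peak, 1841 to 3034, did not overlap the m7 peak, 986 to 1671, and overlapped the upstream gro peak, 2402 to 2940. The nearest m3 peak has no place in this order, since only its rank in replicate 3, 2604, is its own. Over the 9 peaks matched in all replicates, Spearman's rho between replicate ranks was 0.983, 0.983 and 0.967, and over all matched IDR peaks 0.839, 0.808 and 0.814. These are descriptions over peaks of the same libraries, and the 9 were picked by being among the strongest of every replicate.

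A peak was called matched when a replicate peak among the 4555 strongest covered at least 50% of it. By that rule 9 of the 10 were matched in all 3 replicates, where 73.4% of all IDR peaks were. The summits of the matched replicate peaks lay within 65 bp of the IDR summit for those 9. All 10 peaks had the highest −log10 q-value of the IDR set, 3.88, which 3833 of the 4555 peaks share, so that this value does not rank them. Signals were above the IDR median of 205.2 in 9 of the 10.

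**Figure D3:**
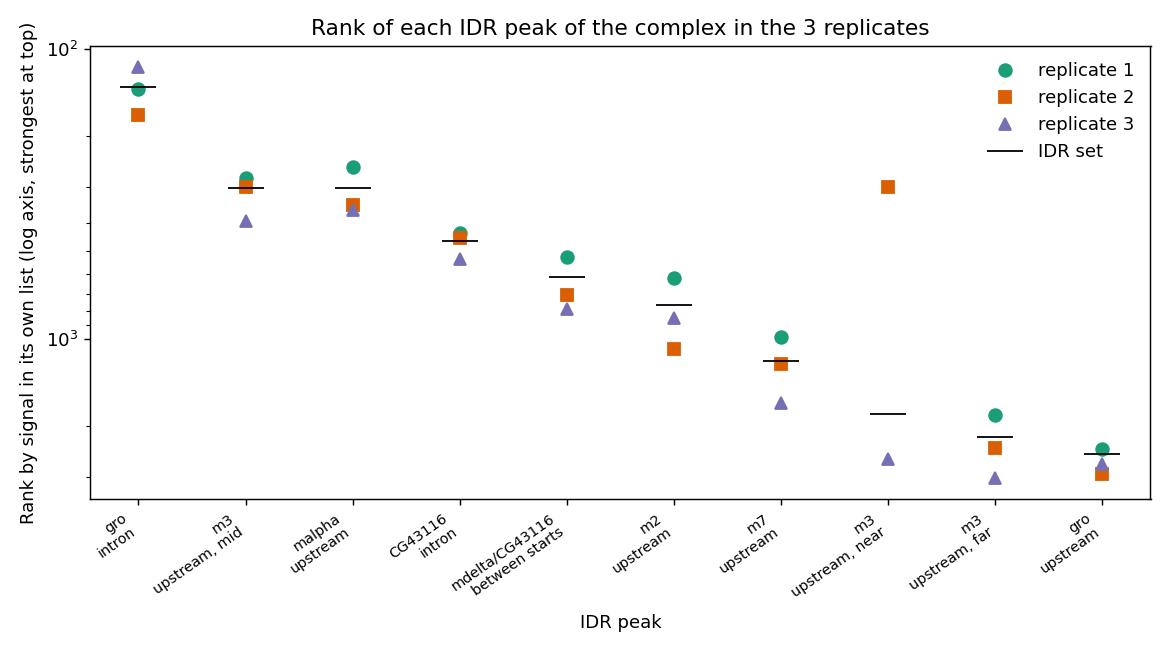
Rank by signal (log axis, strongest at the top) of each IDR peak of the complex in the lists of replicate 1 (circles), replicate 2 (squares) and replicate 3 (triangles), with its rank in the IDR set (bars). The gro intron stands above all others at ranks 115 to 169, and the m3 peak nearest to the start has no replicate 1 value and a replicate 2 value taken from the neighbouring peak.

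The spacing of the IDR summits ranged from 220 to 15110 bp. Between the CG43116 and mdelta summits the gap was 674 bp, and the 3 summits upstream of m3 lay 907 and 220 bp apart. The widest gaps ran over mdelta, mgamma and mbeta, 11800 bp, over malpha, Kaz-m1 and m2, 8944 bp, and over m3, m4, m5 and m6, 15110 bp. Between all IDR summits the median gap was 9818 bp, beside 2420 bp in the complex. The gaps of the complex were thus mostly short for the genome. The gap over m7 and m8 was 4937 bp.

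The IDR set held the 4555 pooled peaks of highest signal, so that its peaks must lie above the others by signal. Only the width of the step in the interval is not fixed in this way. The weakest IDR peak of the complex had a signal of 191.3, the lowest of the whole set was 116.6, and the strongest pooled peak of the interval outside the set had 70.8. The 10 pooled peaks below the limit had signals from 47.3 to 70.8. When the whole relaxed replicate lists were searched, and not only their 4555 strongest peaks, none of the 10 was covered to 50% in all 3 replicates, with 6 covered in 2 and 4 in 1. For the summit 767 bp upstream of m2, with a signal of 59.7, the strongest covering peak of replicate 3 was the one that also matched the stronger m2 peak, and replicate 3 had a further summit nearby, at 26018290, with a signal of 54.5 and rank 1853. Of all 20 pooled summits, 1 lay in a coding exon, in m3, 292 bp downstream of its start, with a signal of 47.3.

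Sequence at the summits was compared with that of all IDR summits. Within 100 bp the letters AACAAT, on either strand, were found at 6 of the 10 summits of the complex and at 24.6% of all 4555. The shorter ACAAT, which AACAAT contains, was found at 7, against 51.3%. Within 50 bp AACAAT was at 5 of 10, against 13.3%, and within 250 bp at 9 of 10, against 47.7%. The windows at the complex were rich in A and T, with a median GC content of 28.9% against 33.8% over all IDR windows, and AACAAT is itself AT-rich. Within 250 bp the order was the other way, 40.7% against 39.3%. The share that this difference in base composition contributes was not tested. Over the whole interval AACAAT had 75 matches or 13.3 per 10 kb, near the 11.8 per 10 kb of the arms, and 7 of the 75 lay within 100 bp of an IDR summit. No share is given here for windows of the same length away from summits, so that a match is not shown to be a bound site.

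Other patterns had shares above or below those of all IDR summits. CAGCTG or CAGGTG, E-boxes read by proneural proteins, and CACNAG, the N-box, were at 0 of 10 within 100 bp, against 11.1% and 17.1%, and at 3 and 4 of 10 within 250 bp, against 32.6% and 44.2%. CACGTG or CACGCG, sites that bHLH proteins of the complex bind, was at 1 of 10, the farthest m3 peak, against 3.84%. Within 250 bp it was at 4 of 10, against 15.4%. Within 100 bp TATAAA was at 5 of 10, against 37.8%, and TAATTA, read by homeodomains, at 4 of 10, against 19.3%. AGATAA and TATCGATA were at 0 of 10, against 15.2% and 1.95%, and GAGAG was at 2 of 10, against 19.0%. With only 10 windows, these shares are coarse, and no difference is drawn from them.

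The sites of Su(H), the DNA-binding effector of Notch, were dense in the complex, and none lay within 100 bp of an IDR summit. The letters sought were CGTGGGAA, TGTGGGAA, CGTGAGAA and TGTGAGAA on either strand. The interval held 40 matches, 7.11 per 10 kb against 1.06 per 10 kb over the arms. Of these, 0 lay within 100 bp of an IDR summit and 1 within 250 bp, at 109 bp, and the median distance was 1698 bp. Over all IDR summits, 1.91% had a match within 100 bp, a share at which 10 windows would mostly hold none. Since matches are denser in the interval than over the arms, that share is a low measure for these windows. Whether summits and matches lie apart more than their densities give was not tested. In the windows from 250 bp before to 50 bp after the start, m4, m5 and m8 had a match, 3 of 13 genes of the complex, against 4.22% of all genes.

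Facing pairs of Su(H) matches, a forward and a reverse match 14 to 18 bases apart, are an arrangement through which Notch complexes are known to bind as dimers. The search for pairs was added after the single matches had been seen. The 6 arms held 10 such pairs, and 7 of them, 70.0%, lay in the interval, which is 0.0420% of the arms. None of the 10 pairs was within 250 bp of an IDR summit. With 3.40 IDR summits per 100 kb over the arms and 17.8 in the interval, 10 pairs would often show none. This count therefore does not show that pairs and summits avoid each other. The nearest IDR summit was 308 bp from the pair upstream of m7 and 321 bp from the one in a coding exon of CG43116. Both are shown, plus strand, with the Su(H) letters in capitals. The m7 pair is at 3R:26036369-26036401, 653 bp upstream of the start, and the CG43116 pair at 3R:25996282-25996312.
m7 pair: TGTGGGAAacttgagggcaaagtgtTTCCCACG
CG43116 pair: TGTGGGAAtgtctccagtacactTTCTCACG
A further 4 pairs lay 1598 to 5337 bp from the nearest IDR summit, and they include those of 2 bHLH genes with no upstream IDR summit of their own, m8 and mgamma. The m8 pair is at 3R:26040016-26040048, 208 bp upstream of the start, and the pair nearest to the mgamma start is at 3R:25999557-25999589, 278 bp upstream.
m8 pair: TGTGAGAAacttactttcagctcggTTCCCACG
mgamma pair: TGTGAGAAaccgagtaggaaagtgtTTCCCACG
A spacer of 17 bases was shared by 5 of these 6 pairs, the one in CG43116 having 15.

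Genes of the Notch pathway outside the complex were then counted in the same way. An IDR summit in the body or within 2 kb was found for 11 of 21 listed genes, 52.4%, beside the 31.1% of all genes. The strongest summits belonged to numb, whose product blocks Notch in 1 daughter of a dividing precursor, with 805.4 on the signal scale, and to fng, the glycosyltransferase that tunes ligand choice, with 722.3. They were followed by neur, the ligase that the Bearded proteins bind, with 704.4, and by mam, the coactivator of Su(H), with 571.0. The numb peak had ranks of 180 and 162 in replicates 1 and 2 and no matching peak in replicate 3. The cause of this gap was not tested. The peaks of fng, neur and mam had a matching peak in every replicate. Many genes of the Notch list are long, 69154 bp for mam with its 7 summits, and long genes have more room for a summit. For 6 of the 11 genes, mam, N, aph-1, dx, O-fut1 and Ser, the strongest summit was nearest to the start of another gene. Su(H) itself had a pooled summit only, with a signal of 73.5, below the IDR limit. An IDR summit within 1 kb of a start site was found for 8 of the 21, beside 19.3% of all genes.

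The other lists gave shares of 40.0%, 30.0% and 36.4%, closer to the 31.1% of all protein-coding genes, so that these counts do not set the lists apart. Of the HES and HEY genes elsewhere, relatives of the bHLH members, 2 of 5 had an IDR summit in the body or flanks, dpn with a signal of 303.1 and Sidpn with 161.5. Of 10 proneural and related genes of the helix-loop-helix class 3 had one. These were nau, a relative of the vertebrate muscle factor MyoD, with 252.5, da, the partner of the proneural proteins, with 201.5, and emc, an inhibitor of them, with 124.5. Of 11 genes for Groucho partners and other corepressors 4 had one. These were brk, a repressor in Dpp signalling, with 693.7, CtBP with 307.9, HDAC1 with 275.4 and dl with 211.9. For nau, da and HDAC1 the strongest summit was nearest to the start of another gene. No peak of these 3 lists ranked above the gro intron.

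**Figure D4:**
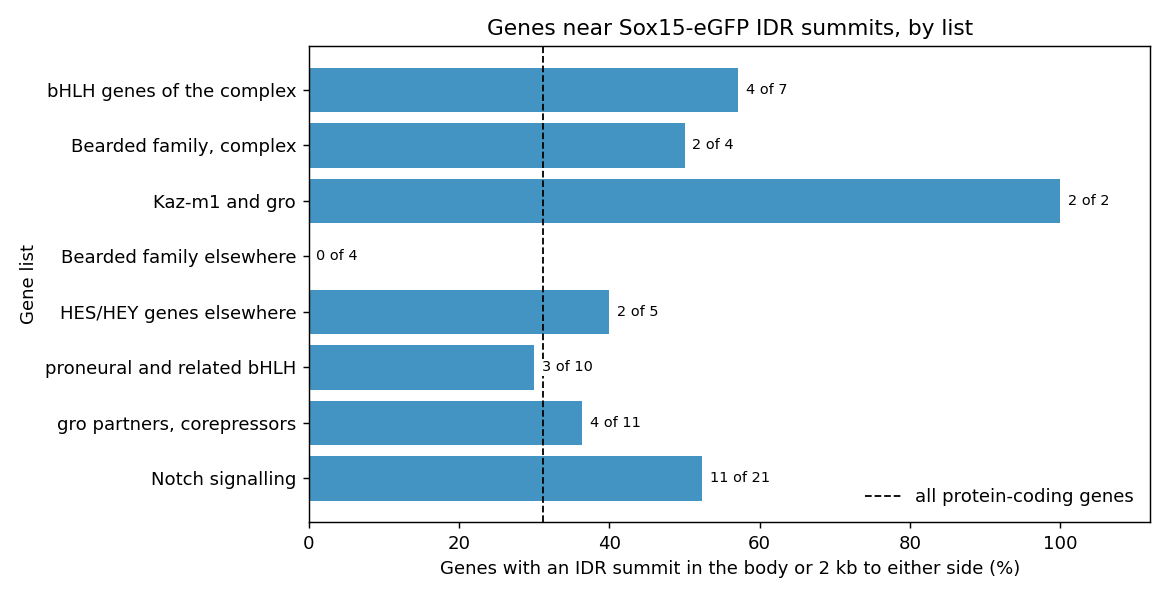
Share of genes (%) with an IDR summit in the body or within 2 kb, by gene list, with the count of genes beside each bar and the share over all protein-coding genes, 31.1%, as a dashed line. The bHLH genes of the complex (4 of 7) and the Notch list (11 of 21) lie right of the line, and the Bearded family elsewhere has 0 of 4.

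The genes whose peaks most resembled the gro intron were sought by the summed absolute difference in log2 rank over the 3 replicates, among 2556 genes with an IDR summit within 1 kb of a start. The most similar were CG2930 and yin, an oligopeptide transporter, which share 1 peak on X at 3868525 to 3868782 with a signal of 884.5 and ranks of 153, 172 and 129. Their difference from gro was 0.34. The next was aru on 2L, with a peak at 865934 to 866193, a signal of 882.2, ranks of 151, 163 and 149 and a difference of 0.56. The likeness covers rank in these libraries only.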

How the data were processed

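Occupancy of Sox15-eGFP was measured by ChIP-seq in 3 biological replicates of whole prepupae. The labels give a fragment size range of 200-800 bp. The deposited dm6 peak lists give for each peak a signal set by the authors, whose scale is not stated, and a −log10 q-value, per the file format named in the deposited listing. The listing names alignments and a further input file for the relaxed lists, of which the replicate lists were called on 1 replicate and the pooled list on all 3. Which aligner and caller were run is not given in the sources used here. The IDR set held the 4555 pooled peaks of highest signal. No read counts were given, so that depth is unknown. The number of libraries limits the precision, and depth can limit it as well. The dm3 lists were not used.

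Summits were placed on Ensembl release 115 genes, and sequence was read from RefSeq Release 6, whose arm lengths fit the lists, with Python 3.11.15, numpy 2.4.6, pandas 2.3.3 and scipy 1.17.1. A gene was counted when a summit lay in its body or within 2 kb. A replicate peak matched when it covered 50% of an IDR peak. On either strand, 11 sequence patterns were searched to 100 bp from each summit. Matching and motif search were tested on simulated data. The members and gene lists were chosen with earlier results of these data known, so no test was run. Genes named are all genes of the complex, up to 4 genes per list by signal, and the 3 genes with ranks most like the strongest peak. N, aph-1, dx, O-fut1, Ser, Su(H), Brd, Tom, BobA and Ocho were named after their values were seen. Of 66 listed symbols 2, BobB and BobC, had no single match, and Dl was found as Delta after the first results had been seen. Alternatives were other flanks, intervals, overlaps, the upper part of the IDR set by signal and leaving out replicates. The position and sequence of 1 Su(H) pair are not reported here.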

Additional observations from a re-analysis of the deposited data

How the results depend on the processing

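Of 37 recomputed values, 34 stayed within 1.5 times the reported one. With no flank, the members with an IDR summit fell from 6 to 1 and those with a pooled summit from 7 to 2, since these genes are small and the summits lie outside them. When a replicate peak had to cover 90% of the IDR peak, 3 of the 10 peaks were matched in all 3 replicates in place of 9, and the cause was not tested. Matching by a replicate summit within 100 bp, an alternative chosen after seeing the data, gave 9. When IDR peaks had to be matched in the remaining 2 replicates, with each replicate left out in turn, the interval held 9 to 10 IDR summits, the members with one stayed at 6 and the Notch list at 10 to 11. Without the added 2 kb the interval held 8 IDR and 18 pooled summits. No paired analysis was possible because the series has 1 group. The peaks came from 3 libraries of unknown depth, so that a weak peak missing from a list is not detectable there and not shown to be absent.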

Other observations

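The count of IDR summits differed between the stretches before and after the interval. Of the 2375 tiles of the interval's length, 912 held no IDR summit and the 90th percentile was 5, so that a count of 0 is common. The 2 kb added before mdelta, which are part of the interval, held 2 IDR summits, with signals of 532.8 and 472.6. The 50 kb before the interval held 0 IDR summits, and the 50 kb after it held 6, in which the strongest, with a signal of 312.2, lay 240 bp upstream of Exo84, an exocyst subunit gene. The others were 122 bp upstream of Vps2 with a signal of 137.4, 113 bp upstream of the ribosomal protein gene RpL34a with 123.4, 9702 bp upstream of CG14551 with 212.9, and at dysf, a bHLH-PAS gene, with 139.3 in an intron and 128.9 at a point 420 bp upstream. None of them reached the median signal of the 10 peaks of the complex. These genes were named after their values were seen.

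In the windows from 250 bp before to 50 bp after the start, TATAAA was found in 11 of the 13 genes of the complex, against 51.2% of all protein-coding genes, and GAGAG in 9 of 13, against 36.3%. AACAAT was found in 4 of 13, against 37.4%. The promoters of the complex were thus not rich in the Sox letters. This count is not set against that at the summits, since the windows differ in length and can overlap. The match at 25997375, for example, lies both in the mdelta promoter window and within 100 bp of the summit upstream of mdelta.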
